A study of Mus musculus with 7 samples.

Results

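The 10 genes described here encode transcription factors of the oligodendrocyte lineage: Sox10, Sox8, Sox6, Olig1, Olig2, Nkx2-2, Nkx6-2, Myrf, St18 and Zfp488. They were chosen by symbol from the 27998 genes of a single-cell RNA sequencing count table, and all 10 were found in it. Their levels are given across the cell clusters of the authors' annotation and across the 3 libraries of the study.

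The cells came from the cortex (motor and cingulate, per the labels) of adult mice of both sexes at postnatal day 90, 11 to 14 weeks of age, on a mixed C57BL/6-B6CBA background. Every mouse carried Emx1-Cre, which recombines in the dorsal forebrain, and the Sox10-GFP-TdTom reporter, which makes Sox10-expressing cells green until Cre turns them red. Control dOLCs (oligodendrocyte lineage cells of dorsal origin) were the TdTom+ cells of such mice, and control vOLCs (ventral origin) were the GFP+ cells of the same mice. Ectopic vOLCs were the GFP+ cells of mice that carried in addition Sox10-GFP-DTA, a transgene from which Cre releases diphtheria toxin A, so that dorsal cells are lost and ventral cells take up dorsal territory. The control libraries pooled 4 mice and the ablated library pooled 2, with no way to tell the mice apart. Each condition was thus 1 library, all on 1 sequencing lane, so no difference between conditions could be tested. All intervals below are 95% intervals that cover counting error only, since a difference between single libraries can also come from the mice, the sort or the library preparation.

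Oligodendrocytes arise from precursors (OPCs) that pass through committed precursors (COPs), newly formed (NFOL) and myelin-forming (MFOL) cells before they become mature oligodendrocytes (MOLs), the cells that ensheath axons with myelin. Sox10 is the factor that holds lineage identity and switches on myelin genes together with Myrf, the main activator of the myelination program. Olig2 specifies the lineage and works with its relative Olig1 during maturation. Nkx2-2 is a homeodomain repressor that favours the onset of differentiation, Nkx6-2 is a homeodomain factor of myelinating cells, and Zfp488 is a zinc finger co-regulator of Olig2. Sox8 is a close relative of Sox10 with overlapping functions. Sox6 is known to restrain precocious differentiation, and St18 belongs to the Myt family of zinc finger proteins.

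Of 10081 barcodes, 9291 passed the filter of the authors (5804, 925 and 2562 in the order control dOLCs, control vOLCs and ectopic vOLCs). Median depths were 3489.5, 5022 and 5318.5 unique molecular identifiers (UMIs) per cell. Libraries shared few barcodes, between 7 and 29 for each pair. The annotation holds 11 clusters, of which OPCs numbered 853, 121 and 330 cells and the MOL5/6 clusters (a to d together) 3777, 561 and 1842 cells in the same order of libraries. Summed marker levels placed the COP, MOL1 and MOL2 markers highest in clusters of those names. The OPC markers ranked 1st in a cluster of cycling OPCs (17, 3 and 11 cells, left out below) and 2nd in the OPC cluster. The MFOL markers ranked only 9th of the 11 clusters in MFOLb, and the MOL5/6 markers only 6th in MOL5/6c. Microglial markers (Cx3cr1, P2ry12, Csf1r and Tmem119) gave at most 1 UMI in the OPCs of any library. Astrocyte markers (Aqp4, Gja1, Slc1a3 and Aldoc) summed to 2204, 2786 and 1777 CPM (counts per 1000000 UMIs of the pooled cells) in MFOLb, which holds 106, 8 and 43 cells, and to 629.6, 633 and 691 CPM in OPCs, against means of 110.1 to 209 CPM in the MOL clusters. Neuronal markers (Snap25, Syt1, Meg3 and Rbfox3) summed to 1090.1, 1262 and 1183 CPM in OPCs and to 18.3, 7.88 and 10.4 CPM in MOL5/6. The part of these markers in the levels below was not tested. The cells were sorted by a reporter driven from Sox10, so the presence of Sox10 in them is a property of the sort and no finding.

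Promoters of 6 of the 10 factors were in the RefSeq table used (GRCm38.p6), and those of Nkx6-2, Zfp488 and Sox8 are shown because their RefSeq start is also the 5′ end of the annotated gene. They stand for the patterns described below: Nkx6-2 was highest in mature cells, whereas Zfp488 and Sox8 were highest in OPCs. Each is the 250 bases before the start on the minus strand, written 5′ to 3′. Capitals mark matches to CANNTG, the E-box core bound by bHLH proteins such as Olig1 and Olig2, or to ACAAAG or ACAATG, core motifs of Sox proteins, all searched on both strands.
Nkx6-2 (chr7:139582798-139583047): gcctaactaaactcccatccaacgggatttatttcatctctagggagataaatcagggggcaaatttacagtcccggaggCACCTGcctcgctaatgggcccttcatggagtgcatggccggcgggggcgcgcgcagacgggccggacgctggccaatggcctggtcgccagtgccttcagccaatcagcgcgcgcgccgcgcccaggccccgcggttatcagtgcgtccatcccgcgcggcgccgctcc
Zfp488 (chr14:33978765-33979014): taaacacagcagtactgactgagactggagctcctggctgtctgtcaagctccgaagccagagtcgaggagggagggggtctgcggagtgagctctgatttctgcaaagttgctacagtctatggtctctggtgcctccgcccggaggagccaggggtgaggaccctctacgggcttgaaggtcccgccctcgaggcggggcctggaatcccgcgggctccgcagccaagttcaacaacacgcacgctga
Sox8 (chr17:25570687-25570936): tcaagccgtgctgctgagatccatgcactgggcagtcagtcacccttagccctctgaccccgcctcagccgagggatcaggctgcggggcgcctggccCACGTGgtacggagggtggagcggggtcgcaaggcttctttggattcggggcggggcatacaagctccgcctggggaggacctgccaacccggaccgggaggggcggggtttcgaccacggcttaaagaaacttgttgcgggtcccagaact
Nkx6-2 and Sox8 held 1 E-box each in this window and Zfp488 none, against 66.2% of all 32851 promoters of the same length with at least 1. None of the 3 held ACAAAG, present in 16.5% of promoters, or ACAATG, present in 10.7%. Of the other matched factors, Olig2 had 1 ACAATG and no E-box and Nkx2-2 had 3 E-boxes. Sox6 has 6 listed starts, which held 1 to 3 E-boxes each. Of these windows of 1 gene, 5 held ACAAAG once or more and 2 held ACAATG. A match describes these letters and is not a binding site.

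The first question was where along the lineage each factor was expressed. The factors fell into 3 groups: Olig1, Olig2, Zfp488, Sox8 and Sox6 had their highest mean level in OPCs, Nkx6-2, Myrf and St18 had their lowest there, and for Sox10 and Nkx2-2 OPCs ranked second. For Sox10 the mean in OPCs (508 CPM) was level with the highest, in MOL5/6c (509 CPM). Because the clusters were built from the genes of these same cells, the levels by cluster are a description with no test. Levels are CPM of summed UMIs, and they are compared within a gene. Values given for the 3 libraries follow the order dorsal control, ventral control, ectopic. In the mixed COP/NFOL/MFOLa cluster they rest on 76, 13 and 22 cells, and the ventral control value there is left out of the order of clusters.

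**Figure D1:**
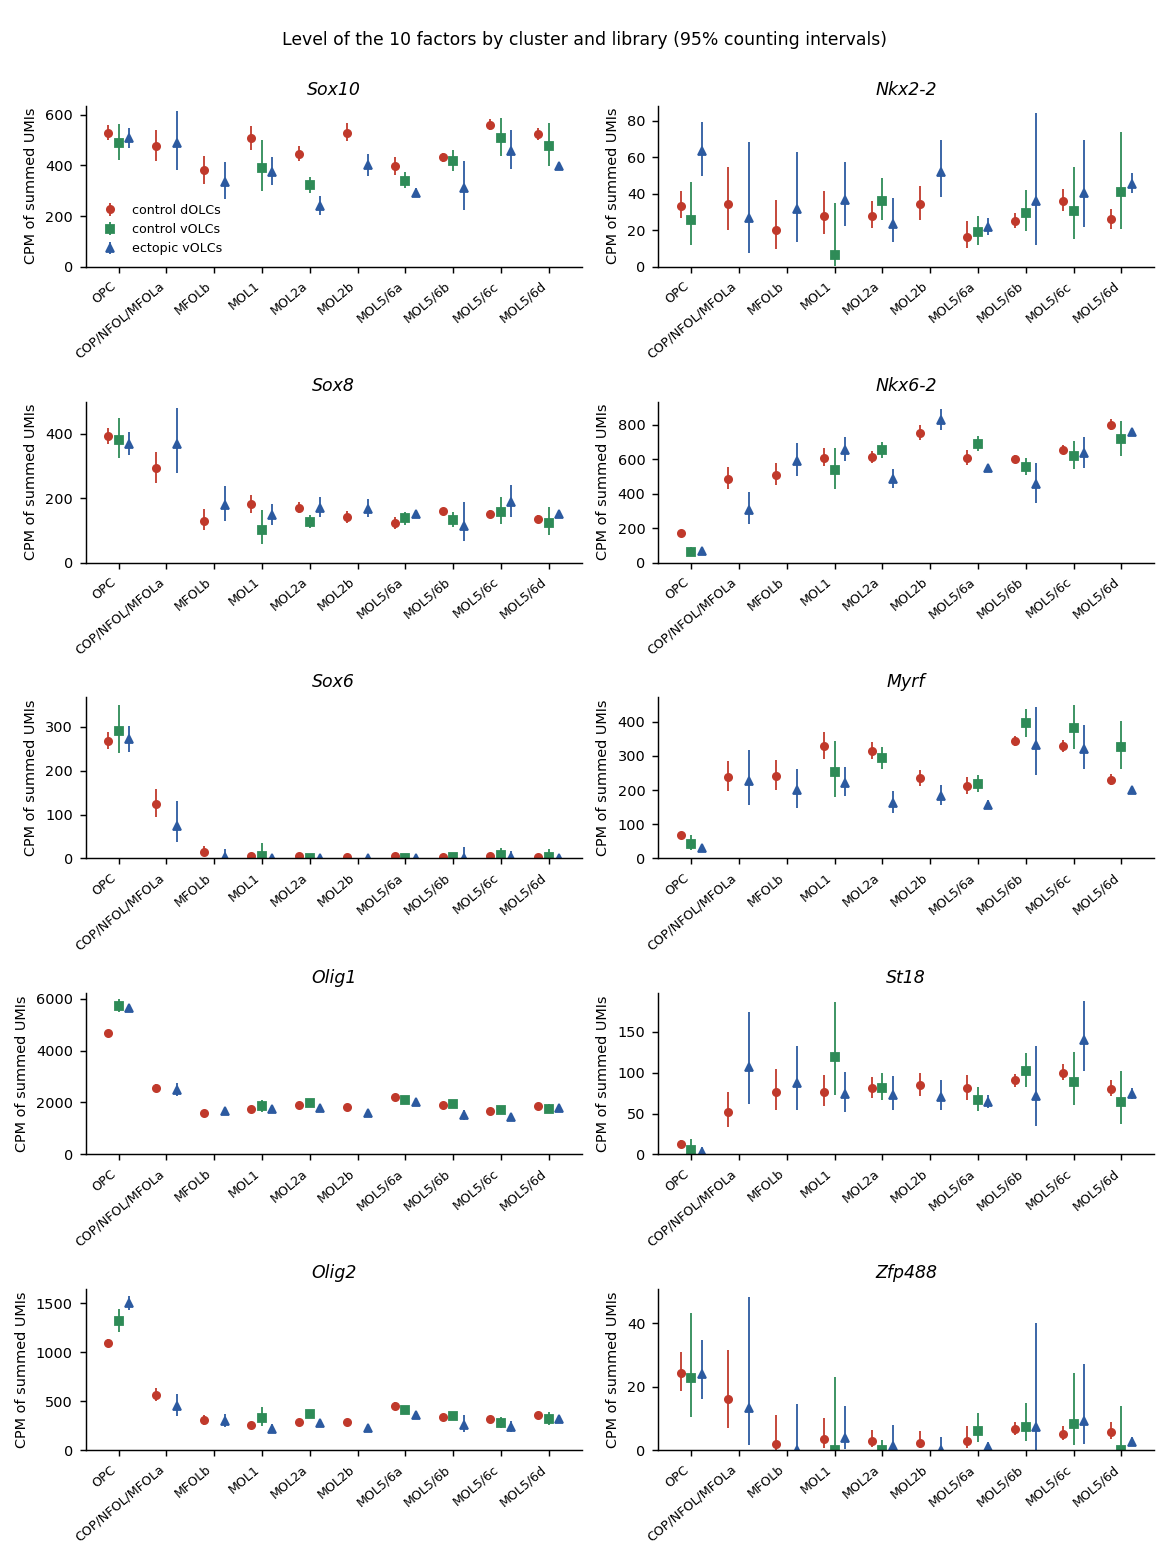
Level of each factor (CPM of summed UMIs, linear axis from 0) in 10 clusters for control dOLCs (red circles), control vOLCs (green squares) and ectopic vOLCs (blue triangles). Bars are 95% Poisson intervals, and pools under 20 cells are left out. Olig1, Olig2, Sox6 and Sox8 have their highest mean at the left, in OPCs, where Nkx6-2, Myrf and St18 are lowest.

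Sox10 (chr15:79154908-79165240, minus strand, GRCm38) differed less between OPCs and mature cells than most of the factors. Its level in OPCs was 529, 489 and 506 CPM, against 485, 398 and 358 CPM in MOL5/6. The level in OPCs was thus 1.09, 1.23 and 1.41 times that in MOL5/6. In the order of clusters by mean level, from MOL5/6c (509 CPM) down to MOL2a (336 CPM), 8 of the 9 neighbouring pairs overlapped in their range over libraries.

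Sox8 (chr17:25565892-25570686, minus strand) was higher in OPCs than in mature cells. OPCs had 393, 383 and 368 CPM, and MOL5/6 had 148, 137 and 151 CPM. The COP/NFOL/MFOLa cluster was at 293, 287 and 368 CPM. As a log2 ratio to OPCs it gave -0.43 (-0.69 to -0.17) in control dOLCs, -0.42 (-1.09 to 0.20) in control vOLCs and 0.00 (-0.43 to 0.41) in ectopic vOLCs, so that the dorsal library alone separated it from OPCs beyond counting error. The number of Sox8 UMIs per Sox10 UMI therefore differed between stages, from 0.744, 0.782 and 0.729 in OPCs to 0.305, 0.343 and 0.421 in MOL5/6.

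Sox6 (chr7:115470872-116038796, minus strand) had the widest range of the 10 factors between these stages. OPCs had 268, 291 and 272 CPM, the COP/NFOL/MFOLa cluster 124, 126 and 73.6 CPM, and MOL5/6 only 3.77, 3.08 and 1.89 CPM, from 56, 9 and 20 UMIs. Sox6 RNA was thus 71.1, 94.5 and 144 times higher in OPCs than in MOL5/6. At least 1 Sox6 UMI was found in 53.7%, 60.3% and 57.6% of OPCs at median depths of 2795, 3454 and 3421.5 UMIs, and in 1.48%, 1.60% and 1.09% of MOL5/6 at 3491, 5069 and 5478.5 UMIs. Per 1000 UMIs of Pdgfra, an OPC receptor gene, there were 236, 300 and 351 Sox6 UMIs in MOL5/6 against 185, 134 and 200 in OPCs. MOL5/6 thus exceeded OPCs in this ratio by a factor of 1.28 (0.955 to 1.68), 2.24 (0.998 to 4.399) and 1.76 (1.06 to 2.76), of which the last excludes 1.

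Olig1 (chr16:91269772-91271933) and Olig2 (chr16:91225457-91228677) lie on the plus strand of the same chromosome, 41094 bases apart. They had the same clusters at the top of their order but not further down, where MOL5/6c was lowest for Olig1 and MOL2b for Olig2. Olig1 was at 4691, 5730.5 and 5657 CPM in OPCs and at 1846, 1963 and 1860.1 CPM in MOL5/6. Olig2 was at 1097, 1322 and 1503 CPM in OPCs and at 349, 366 and 332 CPM in MOL5/6. Both were highest in OPCs, next in COP/NFOL/MFOLa and then in MOL5/6a, without overlap at these steps, and overlapped in most later pairs (6 of 9 pairs overlapped for each gene). Over the 22 pools of cluster and library with at least 50 cells, Olig2 was the gene most like Olig1 among 9538 ranked, and Olig1 the gene most like Olig2, with r = 0.977 on log2(CPM + 10). These pools share libraries, depth and cluster definitions, so r is only a description.

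Among the homeobox genes, Nkx2-2 (chr2:147177546-147194243, minus strand) had no neighbouring clusters that were apart. All 9 pairs overlapped in their range over libraries, between mean levels of 43.1 CPM in MOL2b and 19.0 CPM in MOL5/6a. Nkx2-2 overlaps the antisense genes Nkx2-2os and 6430503K07Rik, and whether the counting used strand is not given in the sources used here, so its reads cannot be told apart from theirs with certainty. Nkx6-2 (chr7:139579376-139582797, minus strand) had the opposite course to Sox6, on the same chromosome. It was at 171, 60.8 and 67.4 CPM in OPCs, at 487, 516 and 308 CPM in COP/NFOL/MFOLa, and at 664, 640 and 669 CPM in MOL5/6. Its highest mean level was in MOL2b (791 CPM). Nkx6-2 overlaps Inpp5a on the other strand, and the same reservation holds.

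Myrf (chr19:10208272-10240748, minus strand) was at 67.8, 43.1 and 29.9 CPM in OPCs and already at 239, 287 and 228 CPM in COP/NFOL/MFOLa. In MOL5/6 it was at 300.1, 306 and 189 CPM. St18 (chr1:6487231-6860940, plus strand) was at 13.0, 5.07 and 3.33 CPM in OPCs, from 34, 2 and 4 UMIs, at 52.2, 80.3 and 107 CPM in COP/NFOL/MFOLa and at 89.96, 80.8 and 72.5 CPM in MOL5/6. For both genes only the step from OPCs to the next cluster in the order did not overlap. Their low levels in OPCs are read below beside the myelin RNA found in the same cells.

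Zfp488 (chr14:33967070-33978764, minus strand) was the lowest counted factor of OPCs beside St18, at 24.4, 22.8 and 24.1 CPM from 64, 9 and 29 UMIs. In MOL5/6 it was at 5.66, 6.16 and 2.27 CPM from 84, 18 and 24 UMIs. There were 354, 600 and 421 Zfp488 UMIs per 1000 Pdgfra UMIs in MOL5/6 against 16.8, 10.5 and 17.7 in OPCs, a factor of 21.1 (15.05 to 29.7), 57.2 (24.4 to 145) and 23.8 (13.3 to 42.3).

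**Figure D2:**
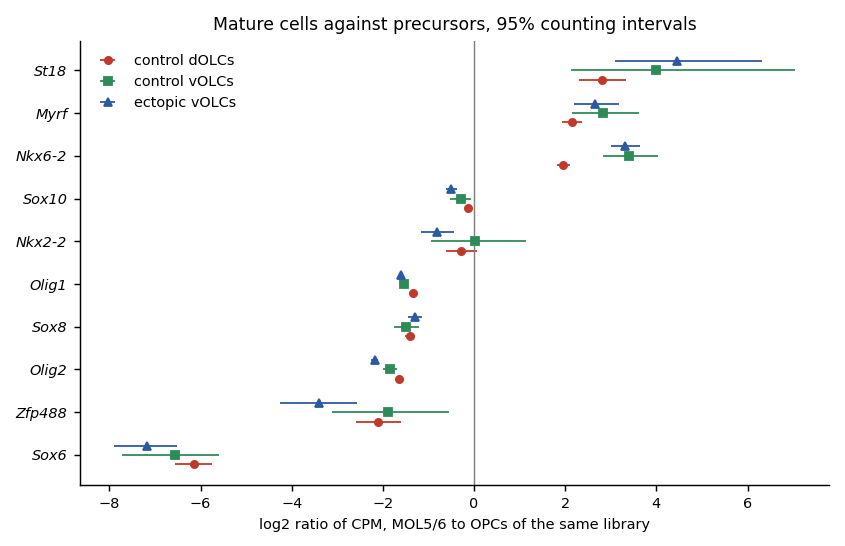
Log2 ratio of CPM between MOL5/6 and OPCs of the same library for each factor, with 95% counting intervals. St18, Myrf and Nkx6-2 lie above 0 and Sox6, Zfp488, Olig2, Sox8, Olig1 and Sox10 below 0 in all 3 libraries, whereas Nkx2-2 lies between -0.81 and 0.02.

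As log2 ratios of MOL5/6 to OPCs, the 3 libraries gave the same direction for 9 factors, with intervals that did not include 0. The exception was Nkx2-2, at -0.29 (-0.62 to 0.06) in control dOLCs, 0.02 (-0.94 to 1.14) in control vOLCs and -0.81 (-1.17 to -0.44) in ectopic vOLCs. The share of all genes with such intervals was not computed, so the count of factors is only a description. The step from OPCs to MOL5/6 was not of equal size everywhere. For Nkx6-2 it was 1.96 (1.82 to 2.096) in control dOLCs, 3.396 (2.82 to 4.04) in control vOLCs and 3.31 (2.996 to 3.65) in ectopic vOLCs, so that both ventral libraries lay above the dorsal one. For Olig2 it was -1.65, -1.85 and -2.18 in the same order.

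The next comparison asked whether OPCs of ventral origin that had replaced dorsal ones differed in these factors from the dorsal OPCs of control mice. A log2 ratio of at least 0.5 in size is called past the fold below, among genes that reached 50 UMIs over the pair of libraries and were found in 10% or more of the cells of either. Of the 8 factors that met this filter in OPCs, Nkx2-2 was past the fold upward in ectopic vOLCs and Nkx6-2 and Myrf downward. Nkx2-2 reached 10% of cells only in ectopic vOLCs, the library where it was high, so its upward call rests in part on the filter. Among all 6110 genes past the filter, 8.48% were past the fold upward and 7.45% downward, and the median of all genes was 0.08 against -0.02 over the 8 factors. Zfp488 and St18 did not meet the filter.

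Nkx6-2 in OPCs was lower in both ventral libraries. The log2 ratio was -1.34 (-1.70 to -0.9997) for ectopic vOLCs to control dOLCs and -1.49 (-2.15 to -0.90) for control vOLCs to control dOLCs, while ectopic to control vOLCs gave 0.15 (-0.52 to 0.87). Both ratios to control dOLCs share that library. The control dOLCs stood apart from the ventral libraries, which did not differ beyond counting error. A Nkx6-2 UMI was found in 36.0%, 16.5% and 22.1% of OPCs of the 3 libraries.

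Myrf in OPCs gave -1.18 (-1.74 to -0.66) for ectopic vOLCs to control dOLCs, from 36 and 178 UMIs. Control vOLCs to control dOLCs gave -0.65 (-1.47 to 0.07), and ectopic to control vOLCs -0.52 (-1.39 to 0.40). Both of the latter intervals include 0, and control vOLCs had only 17 UMIs. St18, with 38 UMIs in both libraries together, gave -1.96 (-3.92 to -0.47) for ectopic vOLCs to control dOLCs.

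RNA of mature cells moved in the same direction in these OPCs. All 15 genes of a list of myelin genes known as targets of Sox10 or Myrf were past the fold downward in ectopic vOLCs, with a median of -1.02, against 7.45% of all genes. In control vOLCs 14 of 15 were so, with a median of -0.996, against 15.4% of all genes. None of the 15 was at 0 in any library. In all, 145 genes, Nkx6-2 and St18 among them, were chosen in control vOLCs for a level in MOL5/6 of 8 times that in OPCs or more, and they made up 2.85% of OPC UMIs in control dOLCs and 1.36% in ectopic vOLCs. The share in control vOLCs is fixed in part by that choice and is not compared. Fewer OPCs on the way to maturity, less such RNA per cell and free RNA from other cells cannot be told apart here.

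Olig2 and Olig1, the factors with the most UMIs, were higher in OPCs of both ventral libraries, under the fold of 0.5 with all UMIs. Olig2 gave 0.45 (0.37 to 0.54) for ectopic vOLCs to control dOLCs, or 0.52 (0.36 to 0.68), past the fold, with each cell thinned to 1000 UMIs. It gave 0.27 (0.13 to 0.40) for control vOLCs to control dOLCs and 0.18 (0.04 to 0.33) for ectopic to control vOLCs. Ectopic vOLCs were thus highest and control vOLCs between, each step beyond counting error. Olig1 gave 0.27 (0.23 to 0.31), 0.29 (0.22 to 0.35) and -0.02 (-0.09 to 0.05), so that the ventral libraries did not differ beyond counting error. Accordingly there were 3.76 Olig1 UMIs per Olig2 UMI in ectopic OPCs (3.57 to 3.97), against 4.27 (4.10 to 4.45) in control dOLCs and 4.33 (3.94 to 4.78) in control vOLCs. Olig2 lies at the 89.2 percentile of all genes in this ratio to control dOLCs.

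Nkx2-2 in OPCs was at 33.5, 25.3 and 63.2 CPM, from 88, 10 and 76 UMIs. It gave 0.92 (0.45 to 1.37) for ectopic vOLCs to control dOLCs and 1.32 (0.36 to 2.44) to control vOLCs. With each cell thinned to 1000 UMIs, 11 and 28 UMIs remained in ectopic vOLCs and control dOLCs and the log2 ratio was 0.02 (-1.13 to 1.07). That interval includes the value from all UMIs, so the thinned counts cannot settle the size of the difference.

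The Sox factors of OPCs did not differ between libraries beyond counting error. For ectopic vOLCs to control dOLCs, Sox10 gave -0.06 (-0.20 to 0.07), Sox8 -0.09 (-0.26 to 0.07) and Sox6 0.02 (-0.17 to 0.21). For control vOLCs to control dOLCs they gave -0.11 (-0.34 to 0.11), -0.04 (-0.30 to 0.21) and 0.12 (-0.18 to 0.41). Zfp488 gave -0.02 (-0.70 to 0.64) and -0.10 (-1.29 to 0.92), wide intervals that leave room for differences past the fold. Between the control libraries, 2 of the 7 factors past the filter were past the fold, Nkx6-2 and Myrf, both downward, against 14.7% of all genes upward and 15.4% downward. Between ectopic and control vOLCs, Nkx2-2 was past the fold upward and Myrf downward of 8 factors, against 21.8% and 13.5% of all genes. Here too Nkx2-2 met the filter only through ectopic vOLCs, where it was high.

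**Figure D3:**
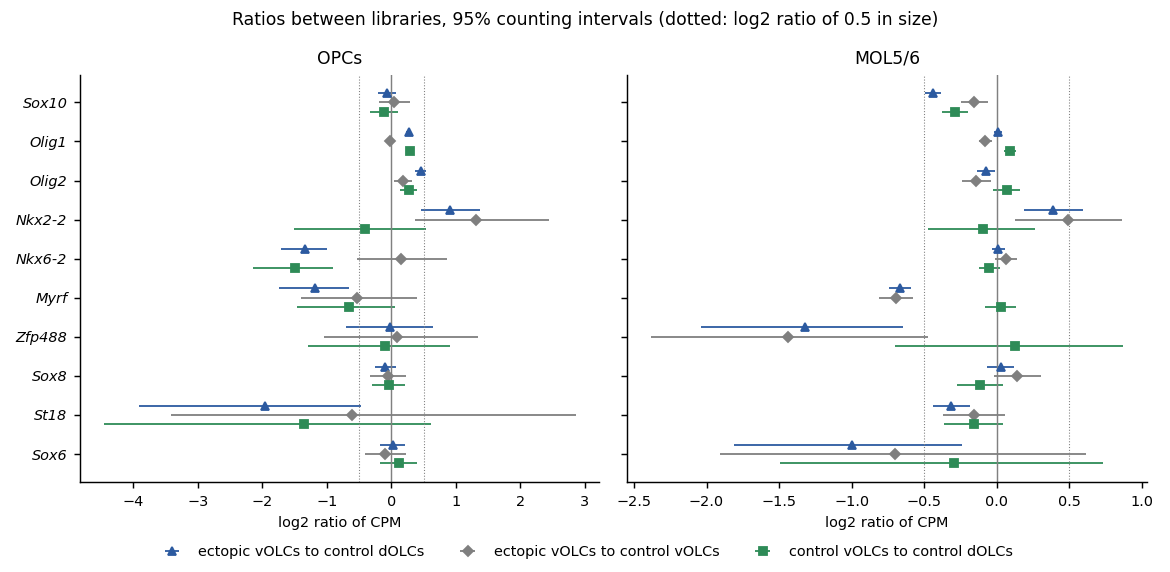
Log2 ratio of CPM between libraries for each factor in OPCs (left) and MOL5/6 (right), with 95% counting intervals and dotted lines at 0.5 in size. In OPCs Nkx6-2 lies below -1 in both ratios to control dOLCs and near 0 between the ventral libraries, and in MOL5/6 Myrf lies near -0.7 in both ratios of ectopic vOLCs.

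In the mature MOL5/6 cells the question was the same, and the answer differed by factor. Of the 8 factors past the filter, only Myrf was past the fold for ectopic vOLCs to control dOLCs, downward, against 2.05% of all 5218 genes upward and 14.8% downward. The median over these 8 factors was -0.03, as for all genes, and -0.19 over all 10 factors, with Sox6 and Zfp488 from outside the filter. Between the control libraries none of the 8 was past the fold, against 3.62% of all genes upward and 1.75% downward. Between ectopic and control vOLCs it was again only Myrf, downward, against 2.57% and 15.8%.

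The scale bears on these ratios. In MOL5/6 the factors of TMM and of the median of ratios raised every ectopic-to-dorsal log2 ratio (ectopic vOLCs over control dOLCs) by 0.17 and 0.19. Of all genes past the fold, 12.1% were higher in ectopic vOLCs with total UMIs as the scale, 45.5% with TMM and 50.1% with the median of ratios. Over all MFOL and MOL clusters these shares were 9.90%, 48.3% and 50.1%. On those scales Nkx2-2 (0.56 and 0.58) was the factor past the fold in MOL5/6, against 7.40% and 8.47% of all genes upward, and Myrf was just short of it (-0.50 and -0.48). For control vOLCs to control dOLCs in OPCs the share of higher genes was 48.7%, 38.3% and 39.1%. Transcript length moved with the ratio as well: over 5082 genes, Spearman's rho between the longest annotated transcript and the ectopic-to-dorsal log2 ratio in MOL5/6 was -0.53, and -0.10 for control vOLCs to control dOLCs. Sox6, St18, Myrf and Zfp488 have the longest transcripts of the 10, 8668, 5892, 5674 and 4301 bases. All 4 were lower in ectopic MOL5/6 cells beyond counting error, Sox6 and Zfp488 from outside the filter. The shorter Sox10 (2780 bases, -0.44) and Olig2 (2530 bases, -0.07) were lower beyond counting error as well. Sox8 (3000 bases), Olig1 and Nkx6-2 did not differ beyond counting error, and Nkx2-2 was higher. The share of all genes lower beyond counting error was not computed. The part of length in these ratios was not tested.

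Myrf in MOL5/6 gave -0.67 (-0.75 to -0.59) for ectopic vOLCs to control dOLCs, 0.03 (-0.08 to 0.13) for control vOLCs to control dOLCs and -0.70 (-0.81 to -0.58) for ectopic to control vOLCs. The ectopic library thus stood apart from both controls. Within subclusters the ectopic-to-dorsal log2 ratio was smaller in size, at -0.43 (-0.63 to -0.22) in MOL5/6a, -0.05 (-0.50 to 0.37) in MOL5/6b, -0.03 (-0.33 to 0.26) in MOL5/6c and -0.21 (-0.34 to -0.08) in MOL5/6d. To control vOLCs it was -0.47 (-0.67 to -0.26), -0.25 (-0.73 to 0.19), -0.24 (-0.63 to 0.14) and -0.70 (-1.02 to -0.37) in the same order, so that MOL5/6a and MOL5/6d lay below both controls beyond counting error. Control dOLCs were mostly MOL5/6b, where Myrf was high (1947 of 3777 cells, 342 CPM), whereas ectopic vOLCs were mostly MOL5/6a and MOL5/6d (900 and 837 of 1842 cells), where it was at 157 and 199.8 CPM. With the subclusters weighted alike the log2 ratio was -0.14, not past the fold. The clusters themselves were made from these genes, so a shift in subclusters and a lower level cannot be told apart.

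Sox10 in MOL5/6 was under the fold but, with total UMIs as the scale, varied in the same direction throughout. It was at 485 (474 to 497), 398 (375 to 422) and 358 (346 to 369) CPM. The log2 ratio was -0.44 (-0.50 to -0.38) for ectopic vOLCs to control dOLCs, -0.29 (-0.38 to -0.20) for control vOLCs to control dOLCs and -0.15 (-0.25 to -0.06) between the ventral libraries. With the subclusters weighted alike the first of these was -0.39, and with TMM -0.27. TMM and the median of ratios raised that first ratio by 0.17 and 0.19, and control vOLCs to control dOLCs by only 0.02 and 0.03. The ratio between the ventral libraries was not computed on those scales. At -0.15 it is close in size to the shift of the first ratio, so the order of the ventral libraries is given for total UMIs only.

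For ectopic vOLCs to control dOLCs with total UMIs, Sox10 was the factor beyond counting error in the most of the 8 MFOL and MOL clusters. It was below 0 in all 8, from -0.88 (-1.13 to -0.64) in MOL2a to -0.19 (-0.58 to 0.19) in MFOLb, and beyond counting error in 7. In COP/NFOL/MFOLa this ratio was 0.04 (-0.36 to 0.42), as in OPCs not distinct from 0. The ranking did not hold in the other comparisons. For ectopic to control vOLCs Sox10 was below 0 in all 6 clusters with at least 20 cells in both. It was beyond counting error in 2, against 3 each for Olig1, Olig2 and Myrf. For control vOLCs to control dOLCs it was below 0 in all 6 such clusters, beyond counting error in 2, against 3 for Sox8.

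Because the reporter and toxin transgenes are built on Sox10 regulatory sequence, the neighbours of the gene were read beside it. Whether transgene transcripts add to the Sox10 count is not given in the sources used here. Polr2f, which encodes a shared subunit of the RNA polymerases and lies 3133 bases from Sox10, was at 200.01, 276 and 453 CPM in MOL5/6, a log2 ratio of 1.18 (1.11 to 1.24) for ectopic vOLCs to control dOLCs. In OPCs it was at 194, 269 and 517 CPM, and the log2 ratio was 1.41 (1.24 to 1.59). The number of Polr2f UMIs per Sox10 UMI was 0.367, 0.549 and 1.02 in OPCs. Micall1, another neighbour, gave -1.19 (-1.34 to -1.05) in MOL5/6, and Pick1 gave 0.01 (-0.18 to 0.20). Of the 6 listed neighbours, 3 were past the filter in MOL5/6, 1 past the fold upward and 1 downward, against 2.05% and 14.8% of all genes. The part of the transgenes in these values was not tested.

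**Figure D4:**
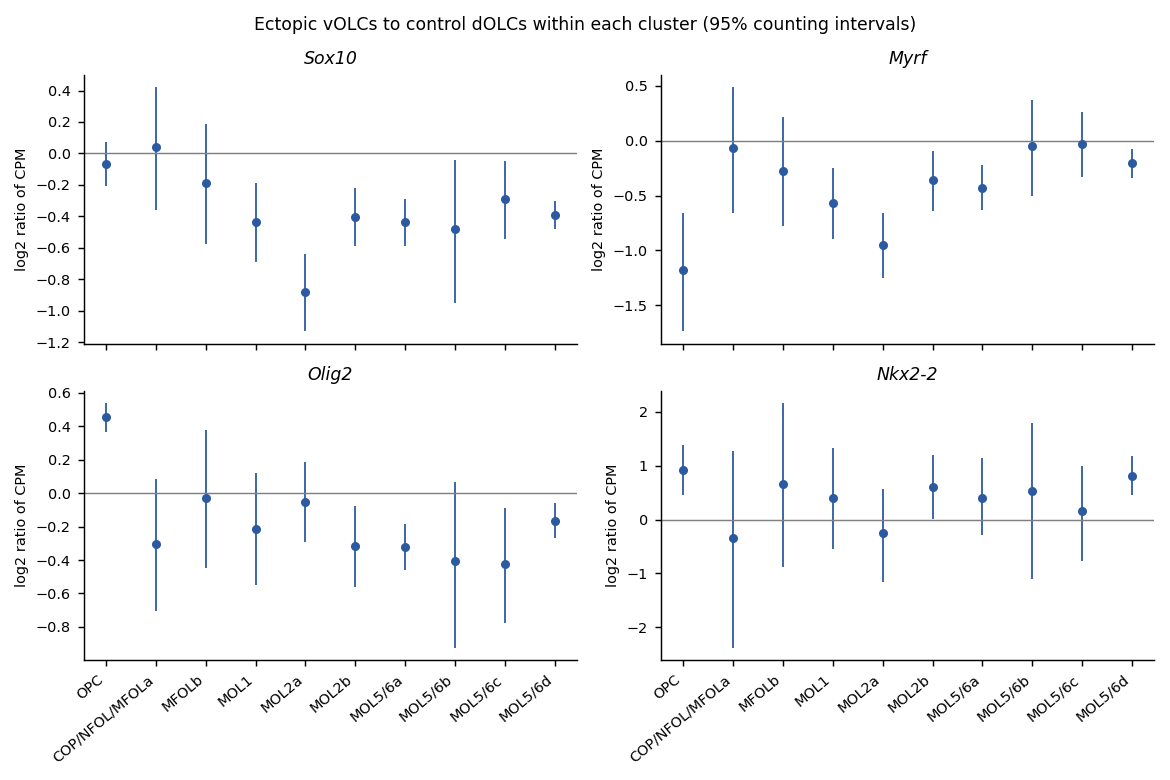
Log2 ratio of CPM of ectopic vOLCs to control dOLCs within each of 10 clusters for Sox10, Myrf, Olig2 and Nkx2-2. The scale is total UMIs, and bars are 95% counting intervals. Sox10 and Myrf lie below 0 in all 8 MFOL and MOL clusters, and Olig2 lies above 0 in OPCs and below 0 in every later cluster.

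Olig2 changed sign along the lineage on the scale of total UMIs. It was above 0 in OPCs (0.45) and below 0 in all 8 MFOL and MOL clusters, from -0.03 in MFOLb to -0.42 (-0.77 to -0.09) in MOL5/6c, beyond counting error in 4. Pooled over MOL5/6 it gave -0.07 (-0.14 to -0.01), which became 0.10 with TMM and 0.11 with the median of ratios. Myrf was below 0 in all 8 clusters, lowest in MOL2a (-0.95, -1.26 to -0.66), and beyond counting error in 5. Nkx2-2 was above 0 in 7 of 8 clusters, beyond counting error in MOL2b (0.61, 0.01 to 1.20) and MOL5/6d (0.81, 0.46 to 1.17). All these counts over clusters use total UMIs. TMM and the median of ratios were not run within single clusters, and the shares of all genes with such counts were not computed.

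Of the remaining factors in MOL5/6, Olig1, Nkx6-2 and Sox8 lay near 0. Olig1 gave 0.01 (-0.02 to 0.04), Nkx6-2 0.01 (-0.03 to 0.06) and Sox8 0.03 (-0.07 to 0.12) for ectopic vOLCs to control dOLCs. The interval of Nkx6-2 excluded 0 in OPCs and included it in MOL5/6, where it was far narrower; the difference between the stages was not tested. Nkx2-2 gave 0.39 (0.19 to 0.60), and 0.09 (-0.39 to 0.55) with cells thinned to 1000 UMIs, an interval that includes both 0 and the value from all UMIs. St18 gave -0.31 (-0.44 to -0.18). Zfp488 (-1.32, -2.04 to -0.65) and Sox6 (-0.996, -1.81 to -0.24) were lower, but on few UMIs and outside the filter. Over all MFOL and MOL clusters together Myrf was again the 1 factor past the fold downward for ectopic vOLCs to control dOLCs and none was upward, against 14.1% and 1.55% of all genes. For ectopic to control vOLCs it was again Myrf alone, downward, against 15.6% and 2.8%. With TMM and the median of ratios, run for ectopic vOLCs to control dOLCs, Myrf was under the fold (-0.46 on both) and Nkx2-2 past it upward (0.57 and 0.58), against 7.06% and 7.40% of all genes upward. Between the control libraries none of the 8 factors past the filter was past the fold in either direction, against 3.81% of genes upward and 1.98% downward.

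Other regulators of the lineage were read from lists and are counts, not tests. Of 21 other Sox, bHLH and homeobox factors, 14 were past the filter in OPCs, and for ectopic vOLCs to control dOLCs 2 were past the fold, both upward, against 8.48% of all genes. Id3, an inhibitor of bHLH proteins, was one of them at 0.58 (0.12 to 1.04). The median of the list was 0.02. Only 4 were past the filter in MOL5/6, with 2 past the fold downward, Sox2 (-0.81) and Tcf12 (-0.61), against 14.8% of all genes.

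Of 27 further regulators, 20 were past the filter in OPCs, with Zfp24 (0.56) past the fold upward and Myt1 (-0.83) and Ctnnb1 (-0.55) downward, against 8.48% and 7.45% of all genes. Myt1 is a relative of St18, and both had negative ratios in OPCs. In MOL5/6, 19 were past the filter and 6 were past the fold downward, against 14.8% of all genes, led by Tcf7l2 (-0.92), an effector of Wnt signalling in newly formed cells, and the nuclear factor I genes Nfia (-0.90) and Nfib (-0.71). The median of that list was -0.35, against -0.03 for all genes. The myelin genes did not follow Sox10 and Myrf in MOL5/6: 12 of 15 were above 0, with a median of 0.16, led by Opalin (0.36) and Mog (0.34), and only Ugt8a, an enzyme of galactolipid synthesis, was past the fold downward (-0.51). On the scales of TMM and the median of ratios Ugt8a, Tcf12 and 2 of the 6 further regulators came under the fold in MOL5/6, and Tcf7l2, Nfia, Nfib and Sox2 stayed past it, against 8.85% and 8.45% of all genes downward. Opalin and Mog on both scales, and Aspa with the median of ratios, were then past the fold upward, against 7.40% and 8.47% of all genes.

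Across the 22 pools, the genes most like each factor were ranked by r. The gene most like Sox6 was Rtn1 (r = 0.992), followed by Susd4 and Vcan. Nkx6-2 stood beside Mapk8ip1 and Mbp (both r = 0.987), Myrf beside Plekhh1 (r = 0.988) and St18 beside Eps15 (r = 0.981). Sox8 stood beside Arpp21 (r = 0.959) and Zfp488 beside Nlgn2 (r = 0.951), but with a pseudocount of 1 beside Afap1l2 (r = 0.952) and Auts2 (r = 0.902). The other two had weaker neighbours, Chd7 for Sox10 (r = 0.901) and Rbm3 for Nkx2-2 (r = 0.809). Among the factors themselves, Nkx6-2 and St18 (r = 0.945) and Myrf and St18 (r = 0.948) varied together, and both Olig1 and Sox6 varied against St18 (r = -0.966 and -0.902). Of the 30 nearest genes, 20 were the same with a pseudocount of 1.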

How the data were processed

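Cortex was dissociated, live cells were sorted by reporter colour and libraries were made with 10x Genomics Chromium 3′ chemistry. The counts deposited by the authors are unnormalised UMI counts per gene and barcode, made with Cell Ranger against mm10 (version 2.1.1 per the labels; the methods text names a later version). The authors' annotation gives each kept cell its library, cluster, UMI count and the percent of mitochondrial UMIs, deposited after a filter of more than 200 and fewer than 3000 genes and at most 15% mitochondrial UMIs. Clusters came from the authors' Seurat workflow. 5 further annotation columns were not used. Samples were grouped by the labels, and 4 newborn (P0) samples were not analysed here. A further cohort is described in the labels as discarded for batch effects.

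From these files, UMIs were summed per cluster group and library in Python 3.11.15 (numpy 2.4.6, scipy 1.17.1, pandas 2.3.3) and scaled to CPM of the pool. Intervals are 95%: exact Poisson for CPM, Clopper-Pearson for shares and conditional exact binomial for ratios. With 1 library per condition there was no test. Pools under 20 cells were left out of the cluster order. Scrublet (through scanpy 1.11.5) called 13 of 9291 cells, too few to have worked, so no cell was removed. Alternatives were TMM factors (edgeR 4.0.16, R 4.3.3), median of ratios, no filter, cell means, thinning to 1000 UMIs, the other control, removal of the highest Scrublet scores, a 10% mitochondrial limit and equal weights of subclusters. A scale without RNA of mature cells, medians over factors past the filter alone, and TMM or median of ratios for the control libraries, were added after seeing the data. The code was tested on simulated data with known ratios. Gene positions are from GENCODE M21 (GRCm38) and promoters from RefSeq (GRCm38.p6). The named genes were the 10 factors, up to 3 genes per list with the largest ratio, and the 3 most alike genes per factor. The factors and lists were chosen with earlier results of these data known. Results for some genes are not reported here.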

Additional observations from a re-analysis of the deposited data

Results flagged for a closer look

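For 4 factors the log2 ratio between ectopic vOLCs and control dOLCs lay above 0 beyond counting error in 1 or more of 10 clusters and below 0 beyond counting error in others. With 1 library per condition, the difference between clusters was not tested. The share of all genes with such a change of sign was not computed. These ratios use total UMIs. TMM and the median of ratios raised the ratios of pooled MOL5/6 by 0.17 and 0.19 and moved those of OPCs by -0.01 on both. They were not run within single clusters, so whether the values in MOL5/6b and MOL5/6c stay below 0 on them is not given. Olig1 gave 0.27 (0.23 to 0.31) in OPCs and -0.34 (-0.54 to -0.14) in MOL5/6b. Olig2 gave 0.45 (0.37 to 0.54) in OPCs and -0.42 (-0.77 to -0.09) in MOL5/6c. Nkx6-2 gave 0.14 (0.00 to 0.27) in MOL2b, barely above 0, and -1.34 (-1.70 to -0.9997) in OPCs. St18 gave 1.04 (0.04 to 1.99) in COP/NFOL/MFOLa, from 16 UMIs in ectopic vOLCs and 26 in control dOLCs, and -1.96 (-3.92 to -0.47) in OPCs, from 4 and 34 UMIs.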

How the results depend on the processing

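No paired analysis was possible because there was a single library for every condition. Leaving out a replicate was not possible for the same reason. The values concern ectopic vOLCs against control dOLCs unless stated. With control vOLCs as the control, Nkx6-2 in OPCs turned from -1.34 to 0.15. In MOL5/6 the median over all 10 factors (-0.19) became -0.031 over the 8 past the filter, -0.023 with TMM, -0.0071 with the median of ratios and -0.029 with thinned cells (8 factors), and the number of factors past the fold (1) became 3 with no filter, where Zfp488 and Sox6 were added, and 0 with subclusters weighted alike. Over all MFOL and MOL clusters the median over all 10 (-0.17) became -0.038 over the 8 past the filter, 0.017 with TMM, 0.024 with the median of ratios, -0.091 with control vOLCs as the control and -0.075 with thinned cells, of which the control vOLC and thinned values are over 8 factors, and the number past the fold (1) became 3 with no filter and 0 with subclusters weighted alike. In both sets of clusters the 1 factor past the fold was Myrf with total UMIs and Nkx2-2 with TMM or the median of ratios. In OPCs the 3 past the fold (Nkx2-2, Nkx6-2 and Myrf) became 2 with thinned cells, Nkx6-2 and Olig2, where Myrf (-1.28) was outside the filter. The number of factors with a higher share of cells with a UMI in ectopic than in control dOLC OPCs was 7, and 4 after thinning. Ectopic OPCs were the deeper ones (a median of 3421.5 UMIs against 2795), and the share of all genes that did so was not computed. The causes of these moves were not tested beyond what each setting itself changes. The other 53 alternative values of counts and medians stayed within the limits set for them. Of the alternative values of single factors, 201 stayed within their counting interval, 68 moved and 1 reversed. In OPCs depth limits Zfp488, St18 and Nkx2-2 most, since control vOLC OPCs held only 9, 2 and 10 of their UMIs. In MOL5/6 of control vOLCs the fewest UMIs were those of Sox6 (9) and Zfp488 (18).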

Other observations

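The COP/NFOL/MFOLa cluster holds cells in transition, and its cells were split by whether they had a Sox6 UMI, which gave 28 with and 48 without in control dOLCs, 4 and 9 in control vOLCs and 7 and 15 in ectopic vOLCs. Nkx6-2 was found in a smaller share of the cells with Sox6 than of those without in each library, at 57.1% against 95.8% in control dOLCs, 2 of 4 cells against 77.8% in control vOLCs and 42.9% against 73.3% in ectopic vOLCs. St18 had the same order, at 7.14% against 37.5%, 25.0% against 44.4% and 42.9% against 53.3%. Myrf had it in the control libraries, at 57.1% against 83.3% and 75.0% against 88.9%, but not in ectopic vOLCs, at 71.4% against 66.7%. The cells with Sox6 were shallower in control dOLCs (a median of 5143 UMIs against 7113) and ectopic vOLCs (5041 against 8432) and deeper in control vOLCs (7145 against 6670), and the part of depth in these shares was not tested.

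In OPCs the same split gave no common order for Nkx6-2, at 38.0% with against 33.7% without Sox6 in control dOLCs, 11.0% against 25.0% in control vOLCs and 20.5% against 24.3% in ectopic vOLCs. Myrf was found in a larger share of OPCs with Sox6 in each library, at 18.3% against 14.7%, 15.1% against 8.33% and 14.2% against 4.29%. Here the cells with Sox6 were the deeper ones, with medians of 2914.5 UMIs against 2669 in control dOLCs, 3482 against 3043.5 in control vOLCs and 3698.5 against 2992.5 in ectopic vOLCs.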
